A study of Mus musculus with 30 samples.

Results

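The genes described here encode the mitochondrial respiratory chain and the ATP synthase, measured in cultured mouse cardiac fibroblasts (CFs). They were taken by symbol: names that begin with Ndufa, Ndufb, Ndufc, Ndufs, Ndufv, Uqcr, Atp5 or Cox4 to Cox8, with Sdha, Sdhb, Sdhc, Sdhd, Cyc1 and the 13 protein genes of the mitochondrial genome. Pseudogenes whose symbols end in -ps were left out. Over all files this gave 102 nuclear and 13 mitochondrial genes. The bulk counts of untransduced CFs listed 101 of the nuclear ones among 56691 genes, those of reprogrammed cells 99 among 55401, those of the overexpression 101 among 55359 and those of the knockdown 94 among 49492. The single-cell matrices listed 94 among 32285. The prefixes also catch 8 assembly factors of complex I (Ndufaf1 to Ndufaf8), which are counted apart from the subunits. Nuclear genes named Atp5 are counted as complex V by name alone, so these are not all subunits of it. Enough counts for a test were reached by 92, 90, 93 and 91 nuclear and 12, 13, 13 and 11 mitochondrial genes, in the order of the bulk tables above. Genes under that limit in at least 1 table include Cox7b2, Cox8b and Cox8c.

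The chain passes electrons from NADH (complex I) and succinate (complex II) through complex III and cytochrome c to oxygen at complex IV, and pumps protons on the way. The ATP synthase, complex V, uses the proton gradient to make ATP. Most subunits are encoded in the nucleus, while a core of complexes I, III, IV and V is encoded in mitochondrial DNA and transcribed inside the organelle. Heart muscle is rich in these complexes, and some complex IV subunits have paralogs that replace the common form in certain tissues or states: Cox6a2, Cox7a1 and Cox8b in heart and skeletal muscle, Cox4i2 and Ndufa4l2 in cells short of oxygen, and Cox6b2 in testis. Ndufa4, named as a complex I gene, encodes a complex IV subunit, and Ndufa4l2 is its paralog.

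All cells came from hearts of wild-type mice, and every bulk group had n = 2 libraries. Reprogrammed CFs carried Mef2c, Gata4 and Tbx5 (MGT), transcription factors that turn some fibroblasts towards a heart muscle state, and were set against CFs given LacZ at day 3, in neonatal, 3-month and 18-month cells. Neonatal CFs with Nr4a3 overexpressed (OENr4a3) were set against a control (OECtrl), both labelled day 10, while the series' design text gives day 7. Nr4a3 is an orphan nuclear receptor. MGT cells from 3-month hearts with a short hairpin against Nr4a3 (shNr4a3) were set against MGT cells with a non-targeting hairpin (shNT) at day 7. Untransduced CFs, cultured for 3 days, came from neonatal (postnatal day 1 to 3), 3-, 12- and 24-month hearts. Single MGT cells came from 1 library of 24-month and 1 of neonatal cells. Whether the replicates of a group were different animals is not labelled. The p-values thus rest on library-to-library spread, which may be technical.

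Depth was 17283764 to 22311330 counts in the CF libraries, 14489836 to 18796708 in the MGT and LacZ, 14275501 to 18441428 in the overexpression and 39746879 to 43448379 in the knockdown ones. Nr4a3 had 175 and 178 CPM (counts scaled to a common depth, with TMM factors) in OENr4a3 and 2.49 and 1.85 CPM in OECtrl, and 0.431 and 0.744 CPM in shNr4a3 and 8.84 and 8.18 CPM in shNT. Tbx5 lay at 218 to 298 CPM in MGT and 0.464 to 2.45 CPM in LacZ libraries. The female transcript Xist had 1277 to 1288 CPM in neonatal, 0.450 to 0.479 in 3-month, 0.286 to 0.448 in 12-month and 775 to 833 CPM in 24-month CFs. It lay at 0 to 0.568 CPM in the adult and 439.8 to 548 CPM in the neonatal MGT and LacZ libraries, so adult against neonatal age and the sex of the cells cannot be told apart in that table. Among untransduced CFs the same holds for 3- and 12-month against neonatal cells and for 24- against 3-month cells, while the 12- and 3-month pair had like levels. Between OENr4a3 and OECtrl it was 483 to 484 and 224 to 282 CPM. Fibroblast markers summed to 5756 CPM or more in every bulk library. In bulk RNA, fewer cells of a type and less RNA per cell cannot be told apart. The chi-square of replicate counts per degree of freedom was 20.79 for LacZ at 3 months, 16.96 for OECtrl, 26.52 for shNr4a3 and 13.28 for shNT, and 2.35 to 7.29 for the other groups.

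Mouse chromosome 1 holds a nuclear insert of mitochondrial DNA, which limits what the bulk tables say on the mitochondrial genes. The first stretch of mt-Co2, subunit 2 of cytochrome oxidase (chrM:7013-7087), is shown above the matching stretch of its nuclear copy Gm28661 (chr1:24615491-24615565, minus strand), because their letters are the same. The GENCODE transcripts of build GRCm38 had 0 differences over the 681 bases of the copy.
mt-Co2: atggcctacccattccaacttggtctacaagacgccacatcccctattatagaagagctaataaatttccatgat
Gm28661: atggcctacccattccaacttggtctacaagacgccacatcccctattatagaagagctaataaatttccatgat
Matching stretches of mt-Nd3 (chrM:9459-9533) and its copy Gm28438 (chr1:24613045-24613119, minus strand) are shown with the differing base in capitals, the 1 difference in 345 bases.
mt-Nd3: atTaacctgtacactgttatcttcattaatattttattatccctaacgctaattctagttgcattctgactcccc
Gm28438: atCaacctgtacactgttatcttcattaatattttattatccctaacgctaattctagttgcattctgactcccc
The copies of mt-Atp6 (Gm10925), mt-Co3 (Gm28437) and mt-Nd4l (Gm10222) were identical over 678, 783 and 294 bases, and that of mt-Nd4 (Gm28439) over 876. That of mt-Co1 (Gm29216) differed at 6 of 492 bases.

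In bulk, mt-Co2 had 486 to 1006 counts per library in the CF, 212 to 513 in the MGT and LacZ, 549 to 846 in the overexpression and 7 to 12 in the knockdown table. Per kb this was 0.884 to 1.57% of mt-Co1 in the CF table and 0.0157 to 0.0200% in the knockdown table. In the knockdown table the copy Gm28661 had 77576 to 80682, Gm10925 92250 to 105668 and Gm28437 39476 to 44261 counts. In the CF table Gm28661 had only 325 to 572 counts. With the copies added, mt-Co2 was at 46.1 to 78.5 CPM in the CF libraries, beside 6869 to 7423 CPM for mt-Co1. In the knockdown libraries it was then at 1838 to 1994 CPM, beside 2648 to 3786 CPM. So mt-Co2 with its copy stayed far below mt-Co1 in the CF table. The cause was not tested. In single cells mt-Co2 was at 1553 CPM in 24-month and 2608 CPM in neonatal cells, beside 1349 CPM in 24-month and 2656 CPM in neonatal cells for mt-Co1. The bulk values of mt-Co2, mt-Co3, mt-Atp6, mt-Nd4l and mt-Nd3 are therefore uncertain. The strand-opposite gene mt-Nd6 was at 283 to 326% of mt-Co1 per kb in the knockdown table and 15.1 to 16.7% in the CF table. Among the nuclear genes, 46 of 93 with a protein-coding GENCODE transcript share some 50-base stretch with another gene. In Atp5l 84.8% of stretches are shared, so its values are uncertain too.

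**Figure D1:**
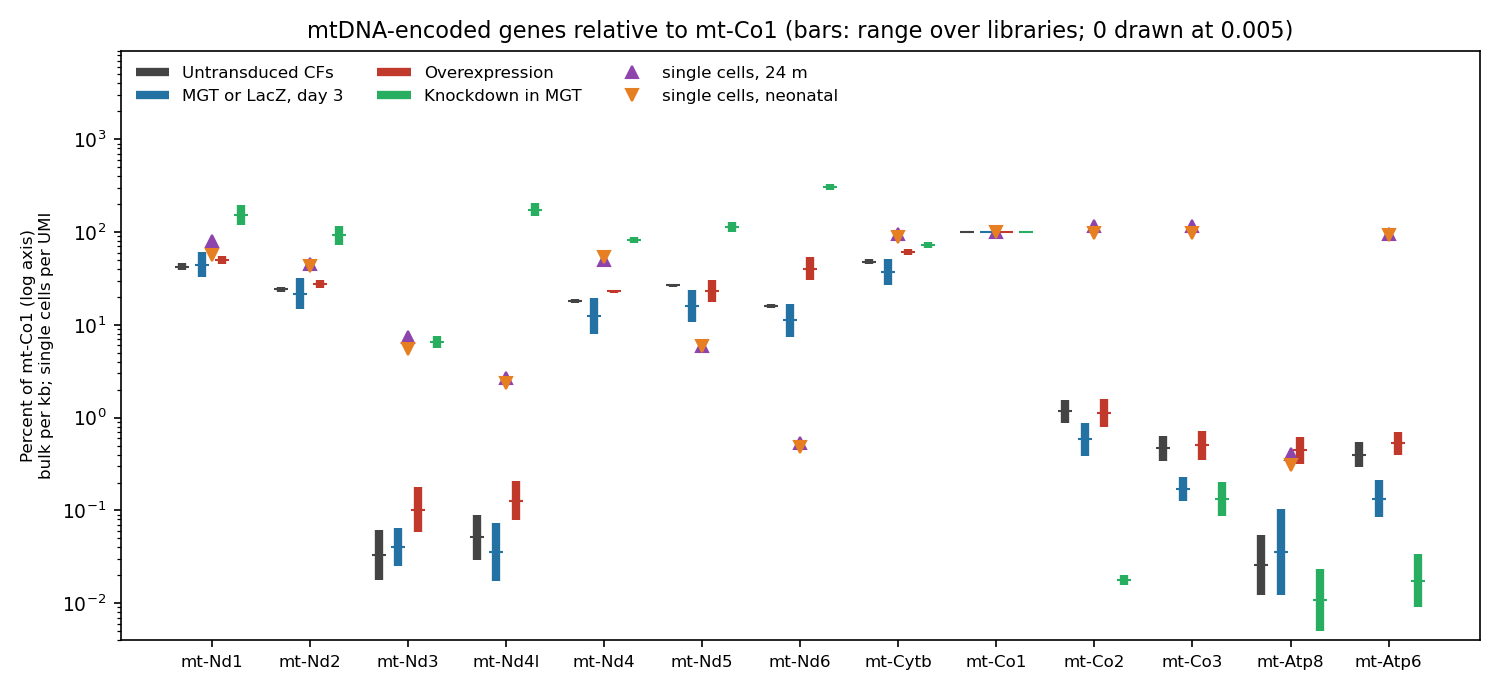
Counts of each mitochondrial gene as a percent of mt-Co1 on a log axis, per kb in the bulk tables and per UMI in single cells; bars run over the libraries of a table, and 0 is drawn at 0.005. In the CF table mt-Co2 lies at 0.884 to 1.57% of mt-Co1, while in single cells it lies near the level of mt-Co1.

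Among untransduced CFs the nuclear chain genes were highest at 12 months. Their summed level was 5428 and 5151 CPM in neonatal, 5183 and 5131 in 3-month, 5795 and 5921 in 12-month and 5295 and 5226 CPM in 24-month CFs. Both 12-month libraries lay above all others. Against 3 months, 49 of 92 genes were higher at 12 months and 2 lower by edgeR's quasi-likelihood test (Benjamini-Hochberg adjusted p under 0.05 over all genes), where 13% of all 16466 tested genes were higher and 15.5% lower. Their median log2 fold change was 0.20, against -0.00 for all genes. DESeq2 called 31 higher and 1 lower. Without the second 3-month library edgeR called 30 higher and 1 lower, and without the second 12-month library 26 higher and 1 lower.

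**Figure D2:**
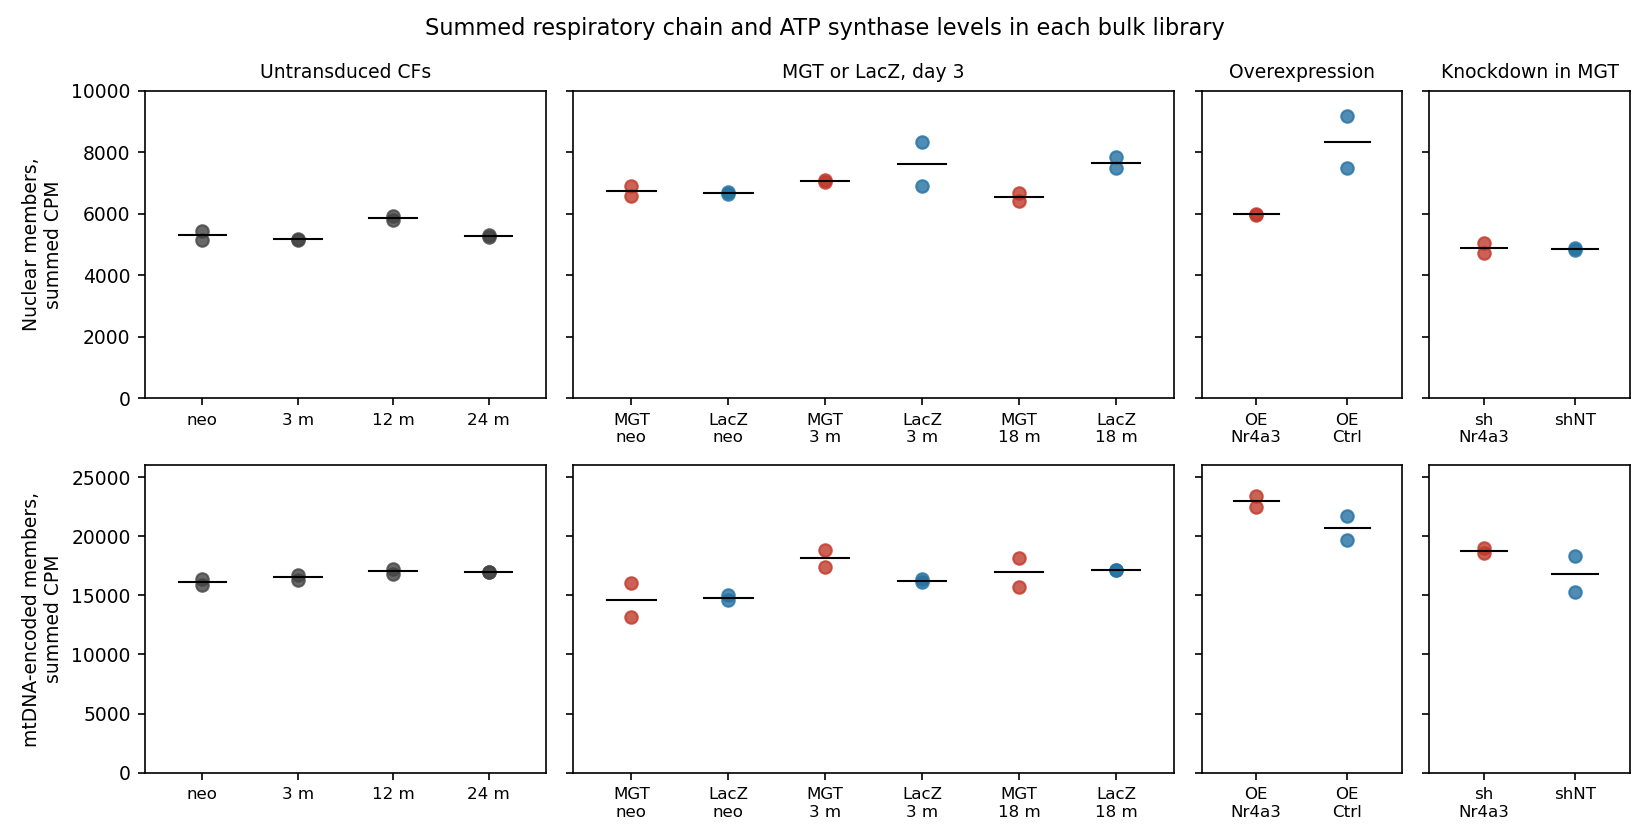
Summed CPM of the nuclear chain genes and of the 13 mitochondrial genes in every bulk library; points are libraries and bars the mean of each group (n = 2). The nuclear sums of OENr4a3 (5990.3 and 5952 CPM) lie under those of OECtrl (7496 and 9176 CPM), and the sums of 12-month CFs (5795 and 5921 CPM) above those of the other CF ages.

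The genes higher at 12 than at 3 months were 21 of 37 of complex I, 3 of 4 of complex II, 5 of 9 of complex III, 6 of 17 of complex IV, 14 of 17 of complex V and 0 of 8 assembly factors. Ndufa10, a supernumerary subunit of complex I, had 84.7 and 81.5 CPM at 12 months and 60.5 and 59.5 CPM at 3 months (log2 fold change 0.47 ± 0.05 SE, edgeR adjusted p = 3.01e-08). Sdha (chr13:74322254-74350280, minus strand, GRCm38), the flavoprotein that oxidises succinate in complex II, had 208 and 215 CPM at 12 months and 192 and 184 CPM at 3 months and rose by 0.17 ± 0.04 on the log2 scale. The libraries of the 2 ages did not overlap for either gene, though Sdha did not pass without the second 3-month or the second 12-month library (edgeR adjusted p up to 0.0697). Cyc1, the cytochrome c1 of complex III, rose by 0.28 ± 0.06, Cox5b of complex IV rose by 0.31 ± 0.06 and Atp5b, the catalytic beta subunit of complex V, rose by 0.27 ± 0.04. Atp5e, the small epsilon subunit of complex V, had 48.0 and 52.1 CPM at 12 months and 37.8 and 39.7 CPM at 3 months and rose by 0.37 ± 0.07. Ndufc1, a small subunit of complex I, rose by 0.54 ± 0.10.

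The lower genes were Cox7a2l and Cox4i2. Cox7a2l (chr17:83501918-83517330, minus strand), which joins complexes III and IV into a supercomplex, had 72.6 and 69.6 CPM at 12 months and 79.5 and 78.3 CPM at 3 months and fell by 0.15 ± 0.06 (edgeR adjusted p = 0.0425), a call not made by DESeq2, with the replicate block or with any 1 library left out. Cox4i2 had 1.55 and 2.09 CPM at 12 months and 3.78 and 3.40 CPM at 3 months and fell by 0.97 ± 0.25, a call lost without the first 12-month library (edgeR adjusted p = 0.0562). Neither gene had overlapping ages.

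Other mitochondrial gene lists were also tested between 12 and 3 months. The tricarboxylic acid (TCA) cycle had 8 higher and 1 lower of 14 tested genes, fatty acid oxidation 9 higher and 0 lower of 16, the carriers and entry points of electrons and nucleotides 7 higher and 1 lower of 25, assembly factors outside the rule 7 higher and 1 lower of 38 and biogenesis 3 higher and 2 lower of 21. The TCA gene that moved the other way was Idh2, the NADP-dependent isocitrate dehydrogenase of the matrix, which fell by 0.68 ± 0.07. Cpt1a, which admits fatty acids to the organelle, rose by 0.32 ± 0.04, and the fatty acid importer Cd36 rose by 0.70 ± 0.09. Slc25a5, an exchanger of ADP and ATP, rose by 0.27 ± 0.04.

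Cell marker sums differed between these ages too, in both directions. Macrophage markers summed to 247.7 to 263.2 CPM at 12 months and 157.5 to 180.2 CPM at 3 months. Endothelial markers summed to 140.2 to 157 and 216.1 to 272.3 CPM, and pericyte markers to 93.44 to 103 and 150.5 to 172.5 CPM. Cardiomyocyte markers summed to 33.5 to 48.5 CPM at 12 months and 13.04 to 18.7 CPM at 3 months, with 11 higher and 0 lower of 15 tested and 1 to 2 of 15 at 0. Cycling markers summed to 443 to 487 CPM at 12 months and 739.5 to 769.7 CPM at 3 months (0 higher and 5 lower of 5), and fibroblast markers to 18800.0 to 19790.0 and 29550.0 to 30090.0 CPM. Their part in the result was not tested.

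Against neonatal CFs, 53 of 92 genes were higher at 12 months and 4 lower, beside 29.7% and 25.5% of all genes, with a median log2 fold change of 0.19. DESeq2 called 25 higher and 3 lower, and edgeR without the second neonatal library 22 higher and 4 lower. At 3 months 6 were higher and 15 lower, beside 28% and 24.4% of all genes. At 24 months 13 were higher and 14 lower, beside 27.9% and 26.6%, and DESeq2 called 6 higher and 10 lower. The calls at 3 and 24 months were below the shares over all genes. Between 24 and 3 months 3 genes were higher and 0 lower, beside 8.85% and 9.47% of all genes, with 9 at an unadjusted p under 0.05. DESeq2 called 1 higher and 0 lower, edgeR without the first 3-month library 0 higher and 0 lower and without the second 24-month library 1 higher and 0 lower. The contrasts with neonatal CFs share those libraries. Cardiomyocyte markers summed to 1093 to 1181 CPM in neonatal, 13.04 to 18.7 in 3-month, 33.5 to 48.5 in 12-month and 32.8 to 35.2 CPM in 24-month CFs, and their part in these results was not tested.

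Subunits of 1 complex had different age profiles. Sdha had 160.4 and 159.8 CPM in neonatal, 192 and 184 in 3-month, 208 and 215 in 12-month and 194 and 188 CPM in 24-month CFs. Every adult library lay above the neonatal ones, and relative to neonatal CFs it rose by 0.23 ± 0.04 at 3, rose by 0.40 ± 0.04 at 12 and rose by 0.26 ± 0.04 at 24 months. Its iron-sulfur partner Sdhb had 57.0 and 51.4 CPM in neonatal, 45.3 and 45.9 in 3-month, 52.1 and 54.0 in 12-month and 44.1 and 45.6 CPM in 24-month CFs. It fell by 0.25 ± 0.06 at 3 months and fell by 0.28 ± 0.06 at 24 months. Cox7a2l had 106 and 94.9 CPM in neonatal, 79.5 and 78.3 in 3-month, 72.6 and 69.6 in 12-month and 74.8 and 77.6 CPM in 24-month CFs. All adult libraries lay below the neonatal ones, and it fell by 0.35 ± 0.06 at 3, fell by 0.50 ± 0.06 at 12 and fell by 0.40 ± 0.06 at 24 months. Ndufv3, of the NADH-binding arm of complex I, had 40.1 and 41.0 CPM at 24 months and 33.1 and 34.6 CPM at 3 months and rose by 0.26 ± 0.07. DESeq2 did not call it, nor did edgeR without the first 3-month or the second 24-month library (adjusted p up to 0.0951).

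LacZ cells gave a further set of ages. Their nuclear sum was 6618 and 6702 CPM in neonatal, 6880.5 and 8332 in 3-month and 7833 and 7483 CPM in 18-month cells. Against neonatal LacZ cells, 24 of 90 genes were higher and 1 lower at 3 months, beside 15.1% and 15.8% of all genes. At 18 months 19 were higher and 4 lower, beside 16.7% and 18.3%. The 3-month count depended on single libraries: it was 64 higher and 1 lower without the first 3-month library, 3 higher and 3 lower without the second, 4 higher and 1 lower without the first neonatal library and 8 higher and 1 lower without the second. DESeq2 called 14 higher and 1 lower at 3 months. The 18-month count was 5 higher and 4 lower without the first neonatal library, 8 higher and 4 lower without the second and 7 higher and 3 lower without the first 18-month library. Atp5b had 769 and 764 CPM in neonatal, 804 and 929 in 3-month and 1127 and 1053 CPM in 18-month LacZ cells and rose by 0.51 ± 0.08 at 18 months. Uqcrc1, a core protein of complex III, rose by 0.42 ± 0.09 and Sdha rose by 0.32 ± 0.08. Of the 52 genes higher in 12-month CFs and tested in both tables, 14 were higher in 18-month LacZ cells (26.9%), which is 73.7% of the 19 there. Of all 89 tested in both, 21.3% were higher in 18-month LacZ cells and 58.4% in 12-month CFs. The TCA cycle had 11 higher and 0 lower of 14 genes at 18 months and the carriers 12 higher and 0 lower of 25.

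Among MGT cells few nuclear chain genes were higher in adult cells. Against neonatal MGT cells, 4 genes were higher and 1 lower at 3 months, beside 12.5% and 13.5% of all genes. At 18 months 2 were higher and 17 lower, beside 14.4% and 16.2%. The 3-month count was 1 to 3 with any 1 library left out, and 2 by DESeq2. The 18-month count was 1 higher and 9 lower without the second neonatal library and 2 higher and 8 lower without the first 18-month library. Cox7a2l had 90.2 and 85.8 CPM in 18-month and 131 and 143 CPM in neonatal MGT cells. The ages did not overlap, and it fell by 0.64 ± 0.10 (edgeR adjusted p = 1.07e-05). Ndufa1, a small complex I subunit, fell by 0.69 ± 0.12, Atp5j2 of complex V fell by 0.47 ± 0.10, and Atp5b rose by 0.33 ± 0.08.

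MGT was set against LacZ at each age. The nuclear sum was 6585 and 6883 CPM in MGT and 6618 and 6702 CPM in LacZ neonatal cells, 7020.0 and 7106 CPM in MGT and 6880.5 and 8332 CPM in LacZ 3-month cells, and 6419.9 and 6667 CPM in MGT and 7833 and 7483 CPM in LacZ 18-month cells. MGT and LacZ overlapped in neonatal and 3-month cells, and MGT was below LacZ at 18 months. In neonatal cells 0 of 90 genes were higher and 1 lower with MGT, beside 4.26% and 3.24% of all genes, with 3 at an unadjusted p under 0.05. The lower gene was Ndufa4l2, and the count was 0 by DESeq2 and without any 1 of the libraries. At 3 months 1 was higher and 5 lower, beside 8.99% and 8.39%. Without the first LacZ library the 3-month count was 1 higher and 46 lower, without the second 1 higher and 2 lower, and without the first and second MGT library 1 higher and 1 lower and 0 higher and 2 lower. DESeq2 called 1 higher and 2 lower.

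**Figure D3:**
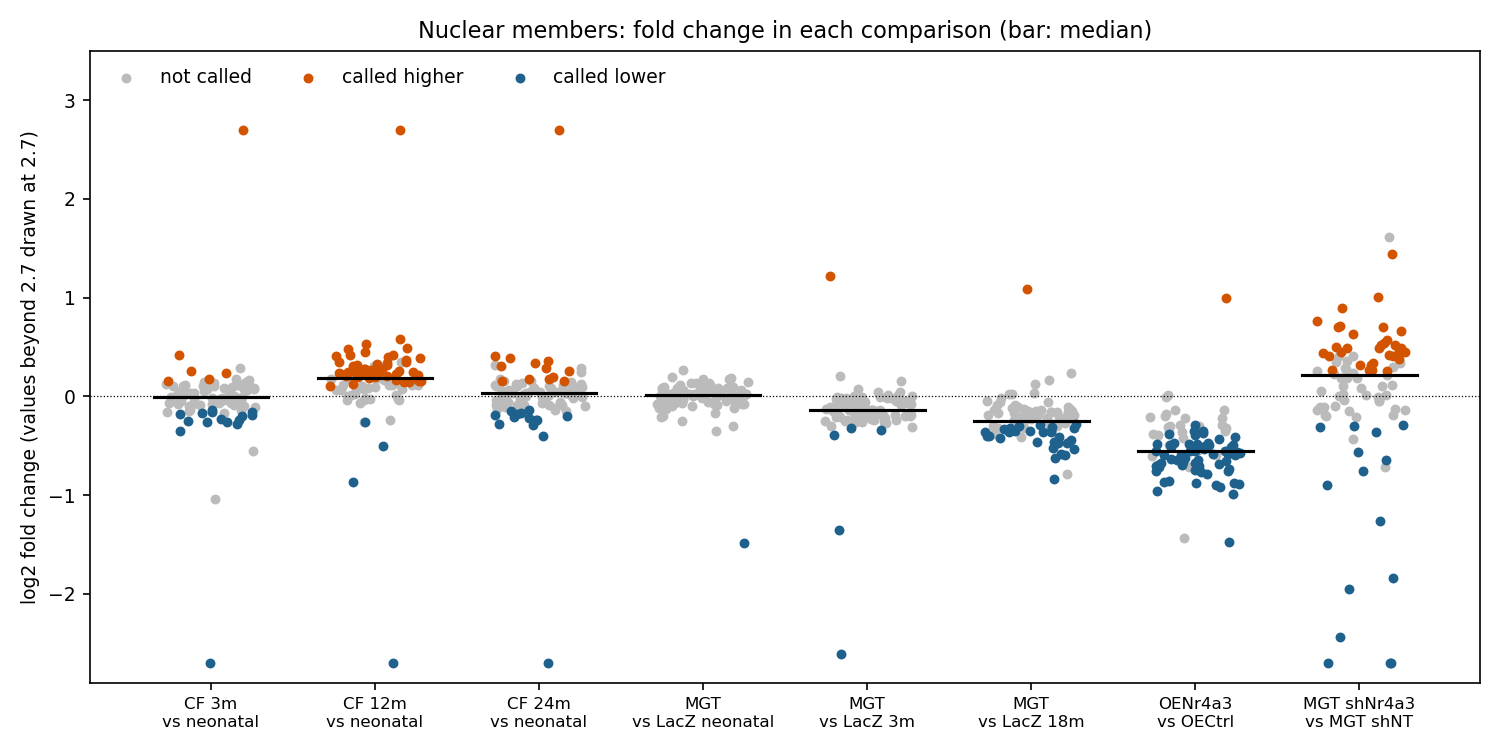
Log2 fold change of each tested nuclear chain gene in 8 comparisons, a point per gene coloured by its call, with values beyond 2.7 drawn at 2.7. The medians are 0.19 for 12-month against neonatal CFs, -0.25 for MGT against LacZ at 18 months, -0.55 for OENr4a3 against OECtrl and 0.21 for shNr4a3 against shNT.

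At 18 months 1 gene was higher with MGT and 30 lower, beside 8.52% and 8.05% of all genes, with a median log2 fold change of -0.25. The lower genes were 10 of 37 of complex I, 2 of 8 assembly factors, 1 of 4 of complex II, 4 of 9 of complex III, 3 of 15 of complex IV and 10 of 17 of complex V. Atp5k, the e subunit in the membrane part of complex V, had 19.2 and 21.8 CPM in MGT and 33.4 and 29.9 CPM in LacZ cells and fell by 0.63 ± 0.11 (edgeR adjusted p = 0.000258). Uqcr11, a small subunit of complex III, had 35.8 and 35.2 CPM in MGT and 55.2 and 51.1 CPM in LacZ cells and fell by 0.58 ± 0.11. MGT libraries lay below LacZ libraries for both genes. Ndufa5 of complex I fell by 0.59 ± 0.12, Cox6c of complex IV fell by 0.48 ± 0.10, the assembly factor Ndufaf2 fell by 0.46 ± 0.14, Sdhd, a membrane anchor of complex II, fell by 0.28 ± 0.09 and Cox7a2l fell by 0.32 ± 0.10. With any 1 of the 4 libraries left out Sdhd and Cox7a2l no longer passed, and Ndufaf2 did not pass without the second LacZ or either MGT library (edgeR adjusted p up to 0.230, 0.155 and 0.179). DESeq2 did not call Sdhd or Ndufaf2. The count was 0 higher and 7 lower without the first LacZ library, 0 higher and 15 lower without the second, 1 higher and 11 lower without the first MGT library and 0 higher and 20 lower without the second.

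The MGT effect was compared between ages by an interaction term. Its difference between 18-month and neonatal cells passed for 0 genes upwards and 4 downwards, beside 2.03% and 0.788% of all genes, with 34 at an unadjusted p under 0.05. The 4 genes were Cox6c, Uqcr11, Ndufa3 and Atp5k. In neonatal cells Atp5k had 26.0 and 27.4 CPM in MGT and 27.5 and 27.9 CPM in LacZ cells, and Uqcr11 43.7 and 49.8 CPM in MGT and 44.8 and 48.1 CPM in LacZ cells, so both groups lay close together. DESeq2 called 2 of the differences, Cox6c and Uqcr11, and edgeR with the replicate block called 3, all but Atp5k. With any 1 of the 8 libraries left out edgeR called 0 to 2. The difference between 3-month and neonatal cells passed for 0 genes upwards and 0 downwards by edgeR, beside 2.28% and 1.41% of all genes. There 8 genes passed an unadjusted p under 0.05 and DESeq2 called 0, while edgeR without the first 3-month LacZ library called 0 higher and 18 lower.

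Beside the 18-month result, cycling markers summed to 639 to 684 CPM in MGT and 930.4 to 952 CPM in LacZ cells, fibroblast markers to 10610.0 to 12090.0 and 8786 to 9839 CPM, and cardiomyocyte markers to 341 to 358 and 3.98 to 6.32 CPM. Of cardiomyocyte markers 6 higher and 0 lower of 10 were called, with 3 to 4 of 15 at 0 in MGT and 7 to 9 in LacZ libraries. Genes up to 1000 bases long had a median log2 fold change of -0.16 over all tested genes and -0.32 over chain genes, and longer ones 0.02 and -0.23. The part of cell types and length in the result was not tested. The TCA cycle had 0 higher and 3 lower of 14 genes, the carriers 0 higher and 5 lower of 25, other assembly factors 0 higher and 2 lower of 38, biogenesis 0 higher and 1 lower of 20 and fatty acid oxidation 1 higher and 0 lower of 16. Idh2 fell by 0.96 ± 0.10 and Slc25a5 fell by 0.44 ± 0.08, while Fabp3, a fatty acid carrier of heart muscle, rose by 0.61 ± 0.21. Tfam, which packages and transcribes mitochondrial DNA, fell by 0.32 ± 0.11. DESeq2 called neither Fabp3 nor Tfam. Without the second LacZ or either MGT library the Fabp3 call was lost, and without any 1 library the Tfam call (edgeR adjusted p up to 0.343 and 0.192).

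Most chain genes were lower with Nr4a3 overexpressed. The nuclear sum was 5990.3 and 5952 CPM in OENr4a3 and 7496 and 9176 CPM in OECtrl, with no overlap. Of 93 genes 1 was higher and 64 lower, beside 11.9% and 10.8% of all 15029 genes. Their median log2 fold change was -0.55, against -0.01 for all genes. The lower genes were 30 of 38 of complex I, 2 of 8 assembly factors, 1 of 4 of complex II, 7 of 9 of complex III, 12 of 17 of complex IV and 12 of 17 of complex V.

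Among genes with an average log2 CPM of 3 or more, the largest called falls were in small subunits. Atp5e had 41.5 and 40.7 CPM in OENr4a3 and 70.7 and 92.3 CPM in OECtrl and fell by 0.99 ± 0.14 (edgeR adjusted p = 0.0022). Ndufb1, in the membrane arm of complex I, had 36.5 and 33.4 CPM in OENr4a3 and 58.9 and 72.6 CPM in OECtrl and fell by 0.91 ± 0.13. Ndufa4 had 73.4 and 72.5 CPM in OENr4a3 and 116 and 155 CPM in OECtrl and fell by 0.89 ± 0.14. Both OENr4a3 libraries lay below both OECtrl libraries for each. Cox7a2 fell by 0.88 ± 0.13, Uqcrh, the hinge protein of complex III, fell by 0.75 ± 0.12, Cox4i1 fell by 0.65 ± 0.13, Ndufaf3 fell by 0.58 ± 0.16 and Sdhb fell by 0.50 ± 0.13. Of the common complex IV forms, Cox6a1 fell by 0.70 ± 0.13, Cox6b1 fell by 0.67 ± 0.12, Cox8a fell by 0.35 ± 0.10 and Cox7a2l fell by 0.41 ± 0.13. Without either OENr4a3 library Cox8a, Cox7a2l, Ndufaf3 and Sdhb did not pass (edgeR adjusted p up to 0.429, 0.341, 0.294 and 0.193), and Cox4i1 did not without the first (0.0747). Cox8a also did not pass with the replicate block, and DESeq2 did not call Ndufaf3. Some core subunits did not pass: Sdha had 162 and 162 CPM in OENr4a3 and 174 and 180.0 CPM in OECtrl (-0.13 ± 0.10; edgeR adjusted p = 0.333). Atp5a1, the alpha subunit of complex V, was at -0.22 ± 0.10 and Cyc1 at -0.29 ± 0.11, with edgeR adjusted p of 0.127 and 0.0909.

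Gene length went with this fall in the whole table. The Spearman rho of log2 fold change with gene length was 0.42 across all 15029 genes and 0.378 across the 93 chain genes; genes share their libraries and are not independent. Genes up to 1000 bases had a median of -0.43 over all tested genes and -0.65 over 22 chain genes. Longer ones had 0.01 over all tested genes and -0.49 over 71 chain genes. The part of length was not tested. Without the first OENr4a3 library 27 genes were lower and without the second 21, and 86 and 68 without the first and second OECtrl library.

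Cell markers differed as well, in both directions. Pericyte markers summed to 120.1 to 127.6 CPM in OENr4a3 and 51.75 to 69.69 CPM in OECtrl, and endothelial markers to 160.5 to 162.7 and 115.4 to 119.6 CPM. Smooth muscle markers were lower, at 1821 to 1874 and 2523 to 2639 CPM, as were the lists that follow. Macrophage markers summed to 648 to 671 CPM in OENr4a3 and 985 to 1006 CPM in OECtrl (0 higher and 5 lower of 10 tested), epicardial markers to 437 to 469 and 971 to 1032 CPM (0 higher and 4 lower of 6), cycling markers to 110.5 to 127 and 138 to 174 CPM (0 higher and 3 lower of 5) and cardiomyocyte markers to 269.5 to 295 and 455 to 502 CPM, with 0 to 5 of 15 at 0. Their part in the result was not tested. Outside the chain, the TCA cycle had 0 higher and 4 lower of 14 genes, the carriers 0 higher and 6 lower of 25, other assembly factors 0 higher and 9 lower of 38, biogenesis 0 higher and 1 lower of 18 and fatty acid oxidation 2 higher and 1 lower of 15. Cd36 rose by 0.94 ± 0.12 and Cpt1a rose by 0.50 ± 0.12, while Slc25a5 fell by 0.46 ± 0.10. Without either OENr4a3 library the Cpt1a and Slc25a5 calls were lost (edgeR adjusted p up to 0.148 and 0.282).

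Promoters were searched for short motifs because these genes fell together. The stretches shown lie upstream of the RefSeq start (GRCm38.p6) of 4 of the genes, with the motif letters in capitals: the palindrome bound by the respiratory factor NRF1, and CCGGAAG, read as CTTCCGG on the other strand, the core of ETS factors such as GABP. They are Cox6a1 (chr5:115348959-115349138, minus strand), which has both, Uqcr11 (chr10:80406822-80406941, minus strand), Atp5k (chr5:108434400-108434579, minus strand) and Ndufb7 (chr8:83566578-83566757, plus strand).
Cox6a1: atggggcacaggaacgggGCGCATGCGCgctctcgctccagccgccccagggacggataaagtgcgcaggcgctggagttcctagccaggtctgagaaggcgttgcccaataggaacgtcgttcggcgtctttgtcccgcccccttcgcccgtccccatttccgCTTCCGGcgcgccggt
Uqcr11: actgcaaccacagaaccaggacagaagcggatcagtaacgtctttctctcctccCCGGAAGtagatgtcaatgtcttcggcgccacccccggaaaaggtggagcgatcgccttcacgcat
Atp5k: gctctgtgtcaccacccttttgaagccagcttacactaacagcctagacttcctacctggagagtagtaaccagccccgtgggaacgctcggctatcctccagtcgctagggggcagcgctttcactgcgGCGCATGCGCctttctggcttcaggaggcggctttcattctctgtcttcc
Ndufb7: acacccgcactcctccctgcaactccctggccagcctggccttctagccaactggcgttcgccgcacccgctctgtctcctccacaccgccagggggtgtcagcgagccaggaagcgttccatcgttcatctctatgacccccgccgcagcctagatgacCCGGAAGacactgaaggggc
In windows of the 250 bases before the start, on both strands, CCGGAAG was in 16.9% of 83 promoters of 78 chain genes and 6.91% of all 32851 promoters. The NRF1 palindrome, matched with no mismatch, was in 6.02% and 0.782%. AAAGGTCA, the site of NR4A monomers, was in 0% and 1.34%, and its part AAGGTCA in 6.02% and 4.08%. ACGTG, the core of hypoxia elements, was in 20.5% and 16.6%. Of the 14 chain genes with CCGGAAG, 9 were lower in OENr4a3, and of the 75 tested with any promoter in the set, 54 were. A match is letters in a window, not a bound site.

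Knockdown of Nr4a3 in MGT cells moved chain genes in both directions, with a few large falls. The nuclear sum was 5054 and 4727 CPM in shNr4a3 and 4888 and 4825 CPM in shNT, and the groups overlapped. Of 91 genes 32 were higher (35.2%) and 15 lower (16.5%), beside 27.9% and 26.7% of all 18045 genes. With all libraries the share higher lay above that of all genes and the share lower below it. The number higher depended on which library was left out. The median log2 fold change of the chain genes was 0.214, against 0.005 for all genes. It was 0.12 to 0.22 with any 1 library left out. Higher and lower were 14 and 4 of 36 of complex I, 3 and 1 of 8 assembly factors, 0 and 2 of 4 of complex II, 3 and 2 of 9 of complex III, 8 and 4 of 17 of complex IV and 4 and 2 of 17 of complex V. The higher ones of complex V include Atp5sl, placed there by its name alone.

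Sdha had 72.8 and 67.4 CPM in shNr4a3 and 248 and 252 CPM in shNT and fell by 1.84 ± 0.08 (edgeR adjusted p = 1.72e-09). Uqcr11 had 10.3 and 10.7 CPM in shNr4a3 and 41.7 and 39.6 CPM in shNT and fell by 1.95 ± 0.11. Cox8a (chr19:7215153-7217616, minus strand), the common form of subunit 8 of complex IV, had 1.87 and 1.63 CPM in shNr4a3 and 9.63 and 9.26 CPM in shNT and fell by 2.43 ± 0.20. The groups were far apart for each. Ndufa7 of complex I fell by 1.26 ± 0.15, Atp5b fell by 0.65 ± 0.08 and Ndufaf8 fell by 0.90 ± 0.18. In the other direction, Uqcrq of complex III had 53.3 and 45.7 CPM in shNr4a3 and 25.6 and 23.7 CPM in shNT and rose by 1.01 ± 0.11. Both shNr4a3 libraries lay above both shNT libraries. Ndufb7 rose by 0.89 ± 0.10, Ndufc2 rose by 0.77 ± 0.21, Cox7a2l rose by 0.71 ± 0.12 and Uqcrc1 rose by 0.70 ± 0.08. The Ndufc2 call was lost without the second shNT library (edgeR adjusted p = 0.0535). Uqcr11 shares 10.9% of its 50-base stretches with other genes, and Sdha and Cox8a 0%. Some genes lay far from their levels in the overexpression control. Cox8a had 127 and 134 CPM in OECtrl, and Ndufa12 155 and 150 CPM in shNT and 25.7 and 41.4 CPM in OECtrl. Sdha was nearer, at 174 and 180.0 CPM in OECtrl. These controls also differ in age, day and MGT. Whether reads were counted alike in all tables was not tested.

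Outside the chain, the TCA cycle had 5 higher and 3 lower of 14 genes, the carriers 7 higher and 10 lower of 25, other assembly factors 9 higher and 13 lower of 39, biogenesis 5 higher and 5 lower of 20 and fatty acid oxidation 3 higher and 6 lower of 16. Of all genes 27.9% were higher and 26.7% lower. Sucla2, of the TCA cycle, fell by 1.12 ± 0.09, Tfam fell by 0.86 ± 0.11, Lrpprc, which stabilises mitochondrial mRNA, fell by 1.41 ± 0.10, and Coa5, an assembly factor of complex IV, rose by 1.59 ± 0.11. Cycling markers summed to 189 to 191 CPM in shNr4a3 and 336 to 353 CPM in shNT, smooth muscle markers to 1219 to 1301 and 560.3 to 588 CPM, and cardiomyocyte markers to 5540.0 to 6315 and 9475 to 11070.0 CPM (5 higher and 2 lower of 14 tested, 0 of 15 at 0). Their part in the result was not tested.

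The overexpression and knockdown experiments share no library, and some chain genes differed widely in level between their controls. Of the 59 genes lower in OENr4a3 and tested in both, 24 were higher in shNr4a3 (40.7%), which is 77.4% of the 31 there, and 7 were lower (11.9%), 46.7% of the 15 there. Of all 87 chain genes tested in both, 35.6% were higher and 17.2% lower in shNr4a3 and 67.8% lower in OENr4a3, so the first overlap lay near these shares. Uqcrq, Ndufb7, Ndufa4 and Cox7a2l were among those with opposite calls, and Atp5b, Cox8a, Ndufa7 and Uqcr11 among those lower in both. Of the 62 lower in OENr4a3 and tested in both tables, 26 were lower with MGT at 18 months (41.9%), 86.7% of the 30 there. Of all 89 tested in both, 33.7% were lower with MGT at 18 months and 69.7% lower in OENr4a3.

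Ndufa4l2 (chr10:127514967-127517154, plus strand, GRCm38) differed in level between most groups. It had 2.49 and 3.24 CPM in neonatal, 36.7 and 39.8 in 3-month, 32.0 and 22.8 in 12-month and 93.0 and 132 CPM in 24-month CFs. The order was neonatal, 12, 3 and 24 months with no overlap of the libraries, and it rose by 3.75 ± 0.42 at 3, rose by 3.26 ± 0.45 at 12 and rose by 5.31 ± 0.37 at 24 months. At 24 against 3 months it rose by 1.56 ± 0.24 (edgeR adjusted p = 0.0143), a call lost without either 3-month library (edgeR adjusted p up to 0.102), while 12 against 3 months was at -0.49 ± 0.28 (edgeR adjusted p = 0.289). Per kb of gene it had 84.95 and 120.4 CPM in 24-month CFs and 2.27 and 2.96 CPM in neonatal ones, and its paralog Ndufa4 45.8 and 40.9 and 45.0 and 40.4 CPM per kb. Ndufa4l2 lay below Ndufa4 in neonatal and above it in 24-month CFs.

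MGT, LacZ, OENr4a3 and shNr4a3 cells differed in it as well. At 3 months Ndufa4l2 had 3.04 and 2.34 CPM in MGT and 17.1 and 15.96 CPM in LacZ cells and fell by 2.61 ± 0.23. In neonatal cells it had 0.337 and 0.545 CPM in MGT and 1.20 and 1.28 CPM in LacZ cells, and at 18 months 0.565 and 0.50 CPM in MGT and 0.406 and 0.498 CPM in LacZ cells. The 18-month groups overlapped and were all under 1 CPM. In OENr4a3 it had 59.3 and 47.0 CPM and in OECtrl 20.3 and 32.6 CPM and rose by 1.00 ± 0.20, the 1 chain gene higher there. In shNr4a3 it was at 0 counts in both libraries, against 102 counts over the shNT libraries, at least 35.1-fold lower with a floor of 3 counts over the group. It was higher in OENr4a3 than in OECtrl and lower in shNr4a3 than in shNT. Across the 12 MGT and LacZ libraries, the genes with the most similar profile were Parp3 (0.976), Hpse (0.969), Gla (0.967), Septin3 (0.967) and Emilin1 (0.967), given with Pearson's r of log2 CPM over 14991 genes, with the libraries shared by all of them.

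**Figure D4:**
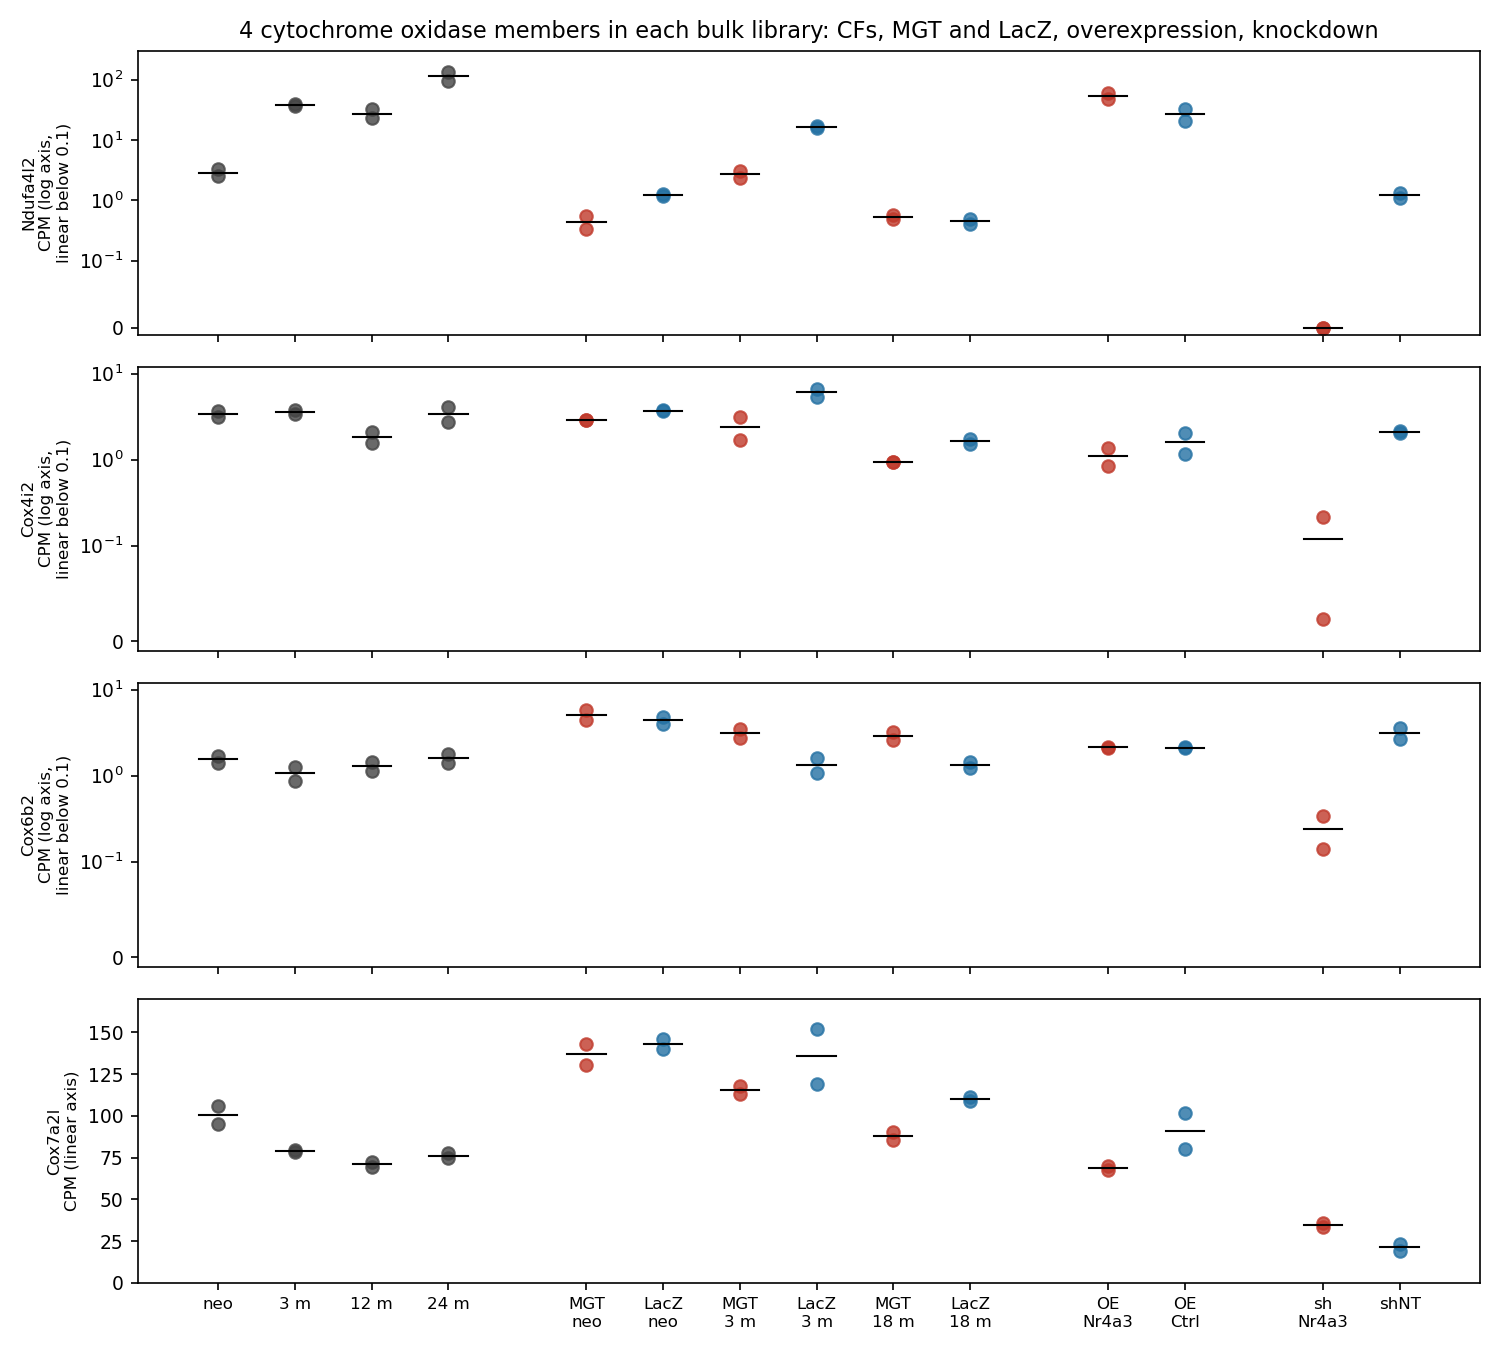
CPM of Ndufa4l2, Cox4i2 and Cox6b2 (log axis, linear below 0.1) and Cox7a2l (linear axis) in every bulk library, 1 point per library. Ndufa4l2 runs from 0 in shNr4a3 to 93.0 and 132 CPM in 24-month CFs, and Cox7a2l is lower in all adult CF libraries than in neonatal ones.

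Other paralogs of complex IV subunits also differed between groups. Cox4i2 (chr2:152754173-152765037, plus strand) had 1.67 and 3.10 CPM in MGT and 5.37 and 6.70 CPM in LacZ 3-month cells and fell by 1.35 ± 0.28. In shNr4a3 it had 0.215 and 0.0232 CPM and in shNT 2.16 and 2.04 CPM and fell by 4.12 ± 0.60. Cox6b2 had 2.73 and 3.52 CPM in MGT and 1.60 and 1.08 CPM in LacZ cells at 3 months and rose by 1.22 ± 0.32. MGT lay above LacZ for Cox6b2 and below it for Cox4i2. The Cox6b2 call was lost without the second LacZ or the second MGT library (edgeR adjusted p up to 0.0978), and the Cox4i2 call without the first MGT library (0.0556). At 18 months Cox6b2 had 2.57 and 3.19 CPM in MGT and 1.45 and 1.24 CPM in LacZ cells and rose by 1.09 ± 0.32, a call lost without either LacZ or the second MGT library (edgeR adjusted p up to 0.167). In shNr4a3 it had 0.335 and 0.139 CPM and in shNT 3.57 and 2.64 CPM and fell by 3.70 ± 0.43. The muscle form Cox6a2 had 2.20 and 1.82 CPM in neonatal, 0.180 and 0.383 in 3-month, 0.229 and 0.249 in 12-month and 0.188 and 0.190 CPM in 24-month CFs. It fell by 2.83 ± 0.45 at 3, fell by 3.04 ± 0.48 at 12 and fell by 3.38 ± 0.49 at 24 months, beside the cardiomyocyte marker sums given for these ages. Per kb, Cox4i1 had 114 and 106 CPM in neonatal CFs and Cox4i2 3.93 and 4.62 CPM.

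Mitochondrially encoded genes gave few calls in CFs. Their sum was 15844 and 16361 CPM in neonatal, 16299 and 16755 in 3-month, 16834 and 17252 in 12-month and 16959.9 and 16995 CPM in 24-month CFs. Against neonatal CFs 1, 3 and 2 of 12 were higher at 3, 12 and 24 months and 0 lower, beside 28%, 29.7% and 27.9% of all genes higher, so these shares were not above those of all genes. Between 12 and 3 months 3 were higher and 0 lower, beside 13% and 15.5% of all genes. Between 24 and 3 months edgeR and DESeq2 called 0, with 2 at an unadjusted p under 0.05. With 1 library left out these counts ranged 0 to 1 at 3, 1 to 7 at 12 and 0 to 1 at 24 months against neonatal, and 0 to 6 for 12 against 3 months. Without the first neonatal library the counts were 0, 1 and 0 at the 3 ages, and without the first 12-month library 7 at 12 months. For 12 against 3 months they were 0 and 1 without the first and second 3-month library and 6 and 1 without the first and second 12-month library. At 24 months the count was 1 without the second neonatal library and without either 24-month one. mt-Nd1, a core subunit of complex I, had 1662 and 1741 CPM in neonatal, 1858 and 1859 in 3-month, 2003 and 2019 in 12-month and 1894 and 1905 CPM in 24-month CFs. It rose by 0.13 ± 0.04 at 3, rose by 0.24 ± 0.04 at 12 and rose by 0.16 ± 0.04 at 24 months, with the adult libraries above the neonatal ones. Without the first neonatal library the calls at 3 and 24 months were lost (edgeR adjusted p of 0.218 and 0.0529).

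Several mitochondrial genes were higher in adult LacZ and MGT cells. Against neonatal cells, 6 and 7 of 13 were higher in LacZ cells at 3 and 18 months, and 7 and 7 in MGT cells, with 0 lower. Of all genes 15.1% and 16.7% were higher in LacZ and 12.5% and 14.4% in MGT cells at these ages. Without the first neonatal LacZ library the LacZ counts were 3 and 4. Without the second neonatal MGT library the MGT counts were 3 and 4, and without the second 3-month MGT library the 3-month count was 4. mt-Nd6, the complex I subunit read from the other strand, had 204 and 229 CPM in neonatal, 384 and 423 in 3-month and 372 and 374 CPM in 18-month LacZ cells and rose by 0.90 ± 0.11 at 3 and rose by 0.78 ± 0.11 at 18 months. Between MGT and LacZ, edgeR and DESeq2 called 0 of 13 at each age, with 1, 1 and 0 at an unadjusted p under 0.05 in neonatal, 3-month and 18-month cells. Left-out libraries moved these counts: edgeR called 2 and 1 in neonatal cells without the first and second MGT library, and 1 in 3-month cells without the first LacZ library.

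In the Nr4a3 experiments the mitochondrial sum was 23417 and 22475 CPM in OENr4a3 and 21683 and 19687 CPM in OECtrl, and 19019 and 18559 CPM in shNr4a3 and 18286 and 15312 CPM in shNT. So OENr4a3 lay above OECtrl in this sum and below it in the nuclear one. In OENr4a3 1 of 13 genes was higher and 3 lower, beside 11.9% and 10.8% of all genes. mt-Nd5 rose by 0.69 ± 0.17, a call not made by DESeq2, while the lower ones, mt-Co2, mt-Co3 and mt-Atp6, are those with uncertain bulk counts. DESeq2 called 0 higher and 2 lower, edgeR without the second OENr4a3 library 1 higher and 1 lower and without the first OECtrl library 5 higher and 5 lower. With the chromosome 1 copies added, edgeR still called mt-Co2 (-0.70 ± 0.11) and mt-Co3 (-0.75 ± 0.11) lower in OENr4a3. There mt-Atp6 (-0.335 ± 0.138) did not pass, and mt-Nd3 (-0.67 ± 0.15) did. In shNr4a3 3 of 11 were higher and 0 lower, beside 27.9% and 26.7% of all genes, so the share higher was near that of all genes. mt-Nd4 rose by 0.43 ± 0.10, mt-Co1 rose by 0.37 ± 0.09 and mt-Cytb rose by 0.32 ± 0.09, calls that were lost without the second shNT library (edgeR adjusted p of 0.101, 0.104 and 0.216). DESeq2 called 4 higher and 1 lower, and edgeR without the second shNT library 0 higher and 1 lower.

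Single MGT cells were compared as 1 library of 24-month and 1 of neonatal cells, so no test was possible, and intervals cover counting error only. Of 6796 barcodes of 24-month cells 5846 had at least 500 genes, and of 4816 of neonatal cells 3914; 11 barcodes were in both libraries. Median depth was 20027 UMIs (unique molecule counts) in 24-month and 12627 in neonatal cells. Summed over cells, the nuclear chain genes had 22401 CPM in 24-month and 28550.1 CPM in neonatal cells, a ratio of 0.785 (95% interval 0.783 to 0.786), and the mitochondrial ones 9646 CPM in 24-month and 17076 CPM in neonatal cells, a ratio of 0.565 (95% interval 0.564 to 0.566). Of the 92 nuclear genes with at least 50 UMIs over both libraries, 5 were higher and 87 lower in 24-month cells, and of the 13 mitochondrial ones 0 and 13. Their median log2 ratios were -0.348 and -0.822, beside -0.027 over the 15074 genes with at least 50 UMIs. The shares of all genes higher and lower by any amount were not counted. By more than 2-fold, 2 nuclear genes were higher and 4 lower and 1 mitochondrial gene was lower, where 9.49% of 15074 genes were higher and 9.93% lower. Most of the lower genes thus lay within 2-fold.

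The nuclear genes past 2-fold were complex IV paralogs, and the mitochondrial one was mt-Nd4, at 669.8 CPM in 24-month and 1417 CPM in neonatal cells. Ndufa4l2 was at 161 CPM in 24-month and 1.87 CPM in neonatal cells, a ratio of 86.2 (95% interval 75.7 to 98.5). Cox4i2 was at 5.02 CPM in 24-month and 2.07 CPM in neonatal cells, a ratio of 2.43 (95% interval 2.10 to 2.81). Both were higher in 24-month cells, as Ndufa4l2 was in 24-month bulk CFs. The bulk MGT and LacZ libraries did not show this at 18 months. Ndufa4l2 had 9 and 8 counts in 18-month and 6 and 9 in neonatal MGT cells, and 7 and 8 and 21 and 24 in LacZ cells. Cox4i2 had 15 and 15 counts in 18-month and 51 and 48 in neonatal MGT cells. Cox8b was at 0.0855 CPM in 24-month and 6.29 CPM in neonatal cells, a ratio of 0.0136 (95% interval 0.00720 to 0.0234). Cox7a1 was at 2.64 CPM in 24-month and 9.50 CPM in neonatal cells and Cox6a2 at 6.29 CPM in 24-month and 14.3 CPM in neonatal cells, and Cox6b2 at 10.7 CPM in 24-month and 22.3 CPM in neonatal cells. These muscle and testis forms were lower in 24-month cells. Sdha had a ratio of 1.07 (95% interval 1.05 to 1.10).

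Cells were clustered without the chain genes, and cells of the 2 ages mostly fell in different clusters. Clusters 11 and 12 were cardiomyocyte-like and held 753 and 526 neonatal cells but 11 and 6 of 24 months. Their nuclear chain level was 43878 and 37313 CPM, against 26030.3 CPM in the largest neonatal cluster, 10, which is led by Crct1 and Eln, and 22238 CPM in the largest 24-month cluster, 0, led by Mmp3 and C3. Cluster 0 also has Ndufa4l2 among its 10 leading genes by fold. The mitochondrial genes were at 44423, 23817, 11073 and 6973 CPM in the same order. Among these 4 clusters the cardiomyocyte-like ones were highest in both. Their depth differed: the median was 1992.5 UMIs in cluster 11, 44398.5 in 12, 54575.5 in 10 and 40509 in 0. Clusters 2 and 4, with medians of 1487 and 2748 UMIs and no cardiomyocyte name, had 30948 and 29564 CPM of nuclear chain genes. The part of depth was not tested. Over all clusters, some others lay above cluster 12, cluster 5 among them in the mitochondrial genes. Without the cardiomyocyte-like clusters the ratio of 24-month to neonatal cells was 0.866 for the nuclear and 0.661 for the mitochondrial genes, nearer to 1 for both.

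**Figure D5:**
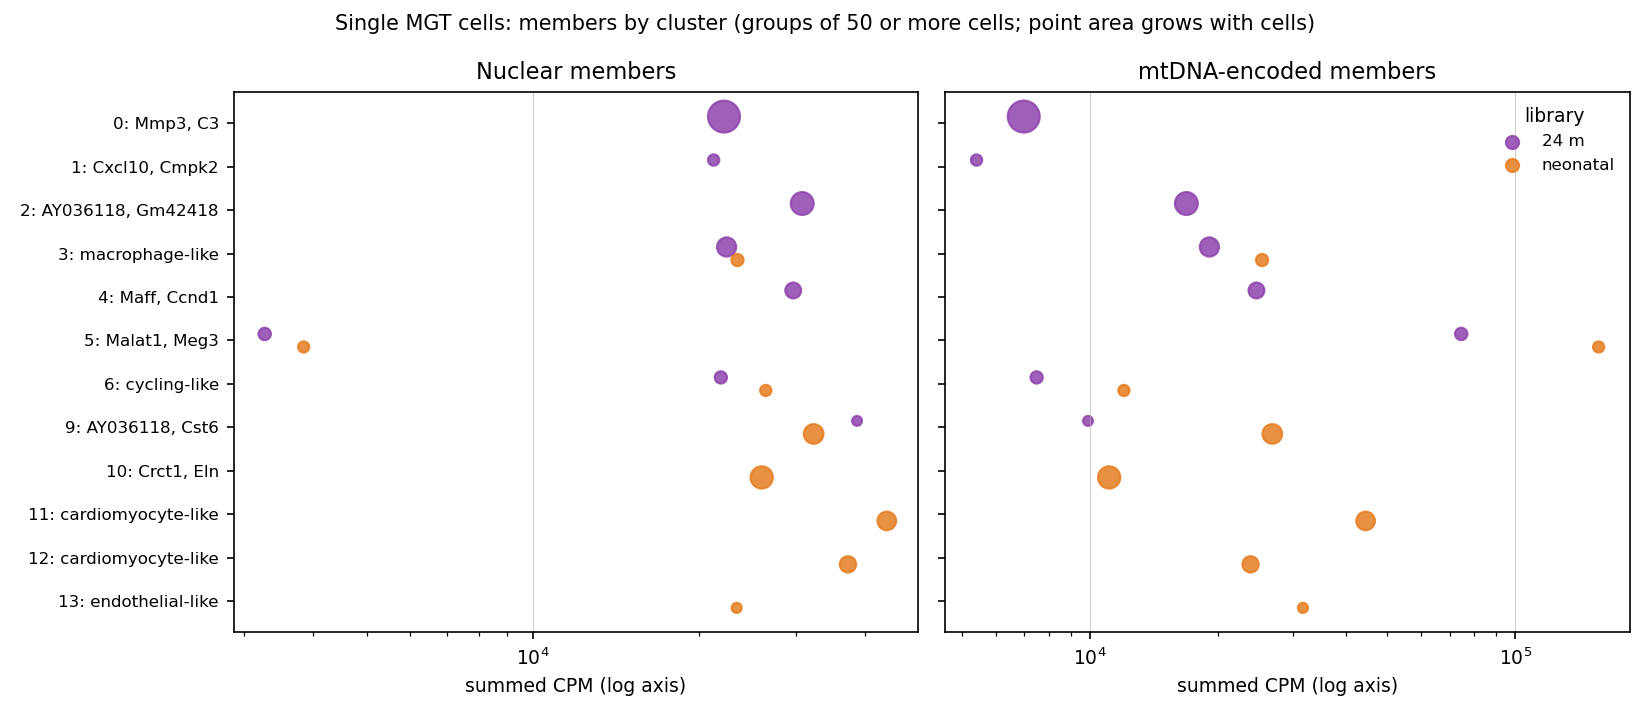
CPM of the nuclear and mitochondrial chain genes, summed over the cells of each cluster and library with at least 50 cells; each marker is 1 cluster of 1 library. The cardiomyocyte-like neonatal clusters lie at 43878 and 37313 nuclear CPM, and the largest 24-month cluster at 22238 CPM.

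Clusters with cells of both ages gave the comparison within a cell class. Macrophage-like cells (cluster 3, 808 of 24 months and 201 neonatal) had 22484 CPM of nuclear chain genes at 24 months and 23521 CPM in neonatal cells, and cycling-like cells (cluster 6, 204 and 138) 21949 and 26472 CPM. The mitochondrial genes had 19056 and 25353 CPM in macrophage-like and 7477 and 11995 CPM in cycling-like cells. The 24-month value was the lower in each of these classes. The unnamed cluster 9 (58 and 859 cells, led by AY036118 and Cst6, with a median depth of 2356 UMIs) had 38756 CPM of nuclear genes at 24 months and 32334 CPM in neonatal cells, so the 24-month value was the higher there. Its mitochondrial genes had 9876 CPM at 24 months and 26796 CPM in neonatal cells. Ndufa4l2 was at 183 CPM in cluster 0 and 1.46 CPM in cluster 10, at 182 CPM in 24-month and 2.89 CPM in neonatal cycling-like cells, and at 36.0 CPM and 0.168 CPM in macrophage-like cells. In cluster 9 it was at 42.8 CPM at 24 months and 2.90 CPM in neonatal cells. It was higher at 24 months in each of these pairs. Free RNA in a library can add to such levels, and its part was not tested. Within the neonatal library, 87 of 92 nuclear chain genes were higher in cluster 12 than in cluster 10, where 57.4% of 13169 genes were higher. Cox8b had 23.0 CPM in cluster 12 and 1.61 CPM in cluster 10, and Cox7a1 31.2 and 2.67 CPM. Cluster 5, led by the nuclear RNA Malat1, had 3269 CPM of nuclear and 74543 CPM of mitochondrial chain genes at 24 months and 3846 and 156897 CPM in neonatal cells.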

How the data were processed

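Per the labels' protocols, RNA was extracted with TRIzol, depleted of ribosomal RNA, made into stranded libraries and sequenced in pairs on a HiSeq X. The deposited bulk values are whole counts of reads per gene that the authors made with featureCounts of Subread 1.5.1 after trimming with Trimmomatic 0.36, with the mouse build mm10, per the submitters' processing notes; the aligner is not given in the sources used here. The deposited single-cell values are UMI counts in 10x matrices. The 28 columns of FPKM values and of other per-sample values in the bulk tables were not used.

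Counts of each table were fitted separately in R 4.3.3 with edgeR 4.0.16 (filterByExpr, TMM, quasi-likelihood, 1 term per group over all groups of the table), and p-values were adjusted by Benjamini-Hochberg over all tested genes; called means adjusted p under 0.05. CPM values are counts divided by TMM-scaled library sizes and put on the usual CPM scale. The scripts were tested on simulated data. Alternatives were DESeq2 1.42.0, size factors of RLE type, no filter on low counts, library sizes without mitochondrial genes, the replicate number as a block, each library left out, and, chosen after seeing the data, chromosome 1 copies added to the mitochondrial genes and other filters on single cells. Cells with at least 500 genes were clustered with scanpy 1.11.5 without the chain genes, with no limit on mitochondrial counts; no doublet caller was run. Cluster names come from marker lists. Same-numbered replicates did not vary together (correlations -0.078 to 0.069), so the numbers were not taken as pairs. The members and lists were chosen with earlier results of these data known.

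Named genes were the complex IV paralogs and their common forms, the mitochondrial genes, the 3 largest called rises and falls of a comparison with an average log2 CPM of 3 or more, the smallest p of each complex and up to 3 of each outside list. Column names of some ages differ from the labels by a few months, and the labels' ages are used. Sequences come from GENCODE and RefSeq, build GRCm38.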

Additional observations from a re-analysis of the deposited data

Results flagged for a closer look

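The MGT effect on 4 chain genes differed between 18-month and neonatal cells by the interaction test. The difference of the log2 fold changes was -0.54 ± 0.14 for Cox6c (edgeR adjusted p = 0.028), -0.59 ± 0.15 for Uqcr11 (edgeR adjusted p = 0.0323), -0.57 ± 0.15 for Ndufa3 (edgeR adjusted p = 0.0338) and -0.57 ± 0.16 for Atp5k (edgeR adjusted p = 0.0471). Cox6c had 92.2 and 86.3 CPM in MGT and 128 and 120.03 CPM in LacZ cells at 18 months, and 109.7 and 126 CPM in MGT and 112 and 113 CPM in LacZ neonatal cells. Ndufa3 had 36.6 and 38.4 CPM in MGT and 55.5 and 47.5 CPM in LacZ cells at 18 months, and 49.0 and 46.1 CPM in MGT and 42.6 and 45.2 CPM in LacZ neonatal cells. With the replicate block Atp5k did not pass and the other 3 did. DESeq2 called Cox6c and Uqcr11. With any 1 of the 8 libraries left out 0 to 2 chain genes passed, and Atp5k passed in none of these 8 fits.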

How the results depend on the processing

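No result kept for a single gene changed direction in 925 alternative values for 101 gene results; 98 of them lost a call and 4 gained one. Counts of nuclear genes called moved by more than 1.5 times with DESeq2: 28 for 12-month against neonatal CFs, 16 for 24-month against neonatal, 32 for 12 against 3 months, 1 for 24 against 3 months, 0 for MGT against LacZ in neonatal cells and 3 at 3 months, 2 for the MGT effect at 18 months minus neonatal, 15 for LacZ and 2 for MGT cells at 3 months against neonatal. Of the mitochondrial genes, DESeq2 called 2 in 3-month against neonatal CFs, 2 in OENr4a3 and 5 in shNr4a3. RLE size factors gave 2 for 3-month and 1 for 24-month against neonatal CFs. Without the filter the counts were 5 for 12-month against neonatal CFs, 1 for MGT against LacZ at 3 and 1 at 18 months, and 5 for shNr4a3, and with the chromosome 1 copies added 1 for MGT against LacZ at 3 months. With the replicate block the mitochondrial count was 1 for 24-month against neonatal CFs and 5 for shNr4a3, and the block moved no other count by over 1.5 times. Of the single genes, it ended the calls of Cox7a2l between 12 and 3 months, Cox8a in OENr4a3 and Atp5k in the interaction.

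With 1 library left out, the nuclear counts ranged 14 to 21 for 3-month against neonatal CFs, 26 to 48 for 12-month against neonatal CFs, 18 to 24 for 24-month against neonatal CFs, 27 to 43 for 12 against 3 months, 0 to 3 for 24 against 3 months, 0 to 0 for MGT against LacZ in neonatal cells, 2 to 47 at 3 months, 7 to 20 at 18 months, 0 to 18 for the MGT effect at 3 months minus neonatal, 0 to 2 at 18 months minus neonatal, 5 to 65 for LacZ cells at 3 months against neonatal, 9 to 16 at 18 months, 1 to 3 for MGT cells at 3 months against neonatal, 10 to 22 at 18 months, 22 to 87 for OENr4a3 and 32 to 51 for shNr4a3. The mitochondrial counts ranged 0 to 1 for 3-month against neonatal CFs, 1 to 7 for 12-month against neonatal CFs, 0 to 1 for 24-month against neonatal CFs, 0 to 6 for 12 against 3 months, 0 to 0 for 24 against 3 months, 0 to 2 for MGT against LacZ in neonatal cells, 0 to 1 at 3 months, 0 to 0 at 18 months, 0 to 2 for the MGT effect at 3 months minus neonatal, 0 to 0 at 18 months minus neonatal, 3 to 6 for LacZ cells at 3 months against neonatal, 4 to 6 at 18 months, 3 to 7 for MGT cells at 3 months against neonatal, 4 to 7 at 18 months, 2 to 10 for OENr4a3 and 1 to 4 for shNr4a3. The cause was not tested.

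The single-cell ratio of 24-month to neonatal cells was 0.7787 for the nuclear genes in CPM over nuclear genes, 0.8657 without the cardiomyocyte-like clusters and 0.8614 without them and with at least 10000 UMIs. For the mitochondrial genes it was 0.5852 with at most 20% mitochondrial counts, 0.556 over all barcodes, 0.5606 in CPM over nuclear genes, 0.5512 with at least 10000 UMIs, 0.6607 without the cardiomyocyte-like clusters and 0.6498 with both. The ratios stayed under 1 throughout these settings. With 2 libraries a group, a single library can decide a count, and with 1 library per age single cells allow no test. Bulk counts of mitochondrial genes with nuclear copies are uncertain.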
